A study of Homo sapiens with 6 samples.

Results

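U-2OS, an established human osteosarcoma cell line, was measured with and without a transfected expression vector, and the comparison is of the vector arrays with the control array in that line alone. The arrays were chosen by cell line, so 3 of the 6 arrays in the series belong to it: 1 of control cells, 1 of cells given the miR-null vector and 1 of cells given the miR-1 vector. The miR-null vector (miRSelect pEP-miR-Null) carries no microRNA of interest, and the miR-1 vector (miRSelect pEP-miR-1) is built to express miR-1, which is abundant in heart and skeletal muscle. Both were introduced for 48 hours with Lipofectamine LTX, a lipid that carries plasmid DNA into cells, and Plus Reagent. For the control array no vector is named, and the sources used here do not say whether those cells received the lipid. Plasmid, lipid and handling therefore cannot be told apart in a difference between control and vector arrays. The KHOS line, another established osteosarcoma line, had the same 3 conditions and serves here only to test where the U-2OS change differed. Each array held RNA pooled from 3 flasks, extracted with TRIzol, on an Affymetrix U133 Plus 2.0 chip. No array repeats another, so the p-values below measure the spread between pooled arrays of different vectors and not between cultures.

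Plasmid DNA and transfection lipid are both foreign to a cell. DNA in the cytosol can be sensed and lead to type I interferon and the interferon-stimulated genes, and strain on protein synthesis or amino acid supply acts through phosphorylation of the initiation factor eIF2 and the transcription factor ATF4, the integrated stress response. Heavy metals and oxidants induce metallothioneins and haem oxygenase. Osteosarcoma cells come from the bone-forming mesenchyme and normally make collagen, fibronectin and the proteases that remodel them.

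The vector arrays differed from each other in miR-1, whose mature sequence is given here from RefSeq (GRCh38.p14, chr20:62554351-62554372, plus strand) with its seed, bases 2 to 8, in capitals, because the seed is the stretch that pairs with target transcripts.
hsa-miR-1-3p: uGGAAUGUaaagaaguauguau

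Values are the deposited log2 RMA values, and each gene is read by 1 probe set. Array medians were 5.07 for control, 5.13 for miR-null and 5.15 for miR-1, and the interquartile ranges were 3.07, 2.84 and 2.75, so the vector arrays had a narrower spread. Hybridization spike-ins, which are added in equal amount to each sample, averaged 10.81, 11.33 and 11.65 on the same arrays, and a 28S ribosomal RNA probe set read 12.06, 13.02 and 13.13. Control probe sets for actin gave a 3′ minus 5′ difference of 2.40, 2.64 and 2.49, and those for GAPDH 0.42, 0.48 and 0.46. The part of these array differences in the results was not tested, and the effect of other scalings is given with the results they change.

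The mesenchymal label was checked against 12 markers. Vimentin (VIM) read 13.62, 13.15 and 13.16 on the arrays of control, miR-null and miR-1 cells, and the matrix protein SPARC 12.07, 11.28 and 11.28. COL1A2, a chain of type I collagen, was at 4.43, 4.56 and 4.67, below the median of every array, as were NT5E, the surface enzyme CD73, and ALPL, the bone alkaline phosphatase. Of the epithelial markers KRT8 and KRT18, a pair of simple keratins, were high, KRT8 at 10.93 on the control array, while CDH1, the epithelial cadherin, was below the median of each array. Of the 9 epithelial markers read, 3 were below the median on all arrays. Above the median of each array were EPCAM (5.96, 5.52 and 5.49), CLDN3 (6.31, 6.09 and 5.92) and CLDN4 (6.36, 5.83 and 5.58). Of 6 blood markers read 4 were below the median on all arrays, including PTPRC, the pan-leukocyte CD45, at 3.53 to 3.66. PECAM1, an endothelial adhesion receptor, read 5.69, 6.54 and 6.46, and the endothelial cadherin CDH5 3.68 to 3.89, below the median of each array. Summed over the 6 endothelial markers the log2 values were 29.6 in control and 31.3 and 30.7 with the vectors. Sums of the blood markers (28.6, 29.5 and 29.7) and of adipocyte and chondrocyte markers (28.2, 29.6 and 30.2) were also higher with the vectors. Those of the mesenchymal (101.4, 93.2 and 92.5) and epithelial markers (60.2, 57.7 and 57.7) were lower. The part of these differences in the results was not tested. Of genes known for their status in U-2OS, CDKN2A, a cell cycle inhibitor silenced in the line, read 5.19, 5.63 and 5.74, near the array medians, while ATRX, a chromatin remodeller known to be lost from it, read 10.17, 9.65 and 9.58.

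With a vector, U-2OS cells had more transcript of the matrix-degrading proteases MMP1 and MMP3, of 8 of 32 integrated stress response genes, of 4 of 9 metallothionein and zinc genes and of the cytokines IL1A and TSLP. They had less of 9 of 20 matrix genes, COL4A1 and fibronectin among them, of 4 of 16 adhesion genes, and of 4 of 35 mitosis and 5 of 31 DNA replication genes. Of 12958 genes tested, 83 rose (0.641%) and 250 fell (1.93%) at an adjusted p below 0.05 in limma with Benjamini-Hochberg adjustment, with both vector arrays on the same side of control. Without a test, both vector arrays lay above control for 4145 genes (32%) and below it for 6634 (51.2%), and the median gene was lower by 0.10 (log2 value -0.10). In 4 groups of rising mean level on the U-2OS arrays, the medians were 0.10, -0.09, -0.23 and -0.16. List medians below are set against the single -0.10, which is not the median at every level. The shares of all genes in this paragraph are the background for the list counts below. By at least 2-fold on both arrays 95 genes (0.733%) were higher and 315 (2.43%) lower, and by 1.2-fold, the fold named in the series' design text, 1674 (12.9%) and 3626 (28%). Fewer cells making a transcript and less of it per cell cannot be told apart here. In limma's fit the smallest rise called was 1.07 and the smallest fall -1.04 (log2), and the 95% interval of a typical gene reached 0.47 to either side.

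These calls rest on 1 residual degree of freedom, the difference between the vector arrays, which also holds any effect of miR-1, and the lone control array is assumed to vary like them. The exact permutation test of 2 arrays against 1 cannot go below p = 0.333 for a single gene. The number of calls and their split between rises and falls depended on the scaling: a further quantile normalization left 2 rises, MMP1 and PRR9, and 0 falls, cyclic loess gave 109 rises and 157 falls, and scaling to equal interquartile ranges 570 and 562. The median of all genes was 0.04, 0.01 and 0.11 under these scalings. Under quantile normalization ATF3, HMOX1 and COL4A1, described below, had changes of 2.58, 2.65 and -1.97 with an adjusted p of 0.0563 each in limma, and IL1A one of 0.0607, so they missed the threshold. By 1.2-fold, quantile normalization gave 2605 higher and 2247 lower genes, and by 2-fold 143 and 184. Of the 90 genes named here that passed, 0 changed direction on the probe set used under the 9 to 11 alternatives run for each. Only the 3 other scalings could have reversed a direction. The other alternatives keep the estimate or drop 1 of 2 vector arrays that a call already required on the same side. The genes were also picked for large changes, so a count of 0 says little.

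Other probe sets of a gene did not always show the change. Of the 51 of these 90 genes with another probe set above the level filter, 28 had all of them on the same side by at least 0.5 (log2). In 8, ACACA, CDH11, CDK6, COL1A1, FN1, RUNX2, SPC24 and UBASH3B, at least 1 lay on the other side of control. In the remaining 15 at least 1 moved by less than 0.5: ASPM, CCNE2, CEBPG, COL5A1, DUSP1, FZD2, GADD45B, HELLS, HRK, LRP6, MCM5, PARP9, RBL1, SCD and TIMP2. The level filter took the mean of all 6 arrays. Thus 8 genes that rose, PRR9, LINC01516 and IL1A among them, reached it only through the arrays on which they were high. The same held for 7 that fell, TENM2 among them. With no level filter all 15 were also called.

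**Figure D1:**
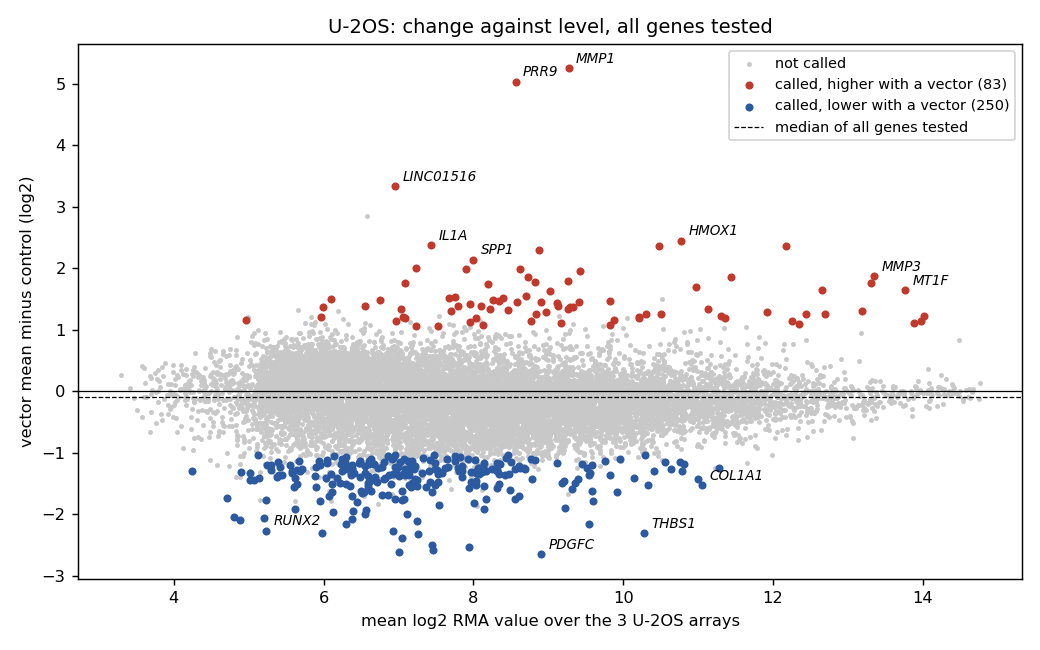
Each point is 1 of the 12958 genes tested, with its mean log2 RMA value over the 3 U-2OS arrays on the horizontal axis and the mean of both vector arrays minus control (log2) on the vertical axis. The 83 genes called higher are red and the 250 called lower blue, MMP1 and PRR9 lie far above all others, and the dashed line is the median of all genes, -0.10.

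MMP1, the interstitial collagenase that cuts fibrillar collagen, rose most. It read 5.77 on the control array, 11.04 with miR-null and 11.00 with miR-1, a rise of 5.25 ± 0.18 (log2, SE; adjusted p = 0.0012 in limma). The control value lay near the median of its array, where no true zero of signal is known, so no fold is given. Both vector values lay among well-expressed genes. MMP3, stromelysin-1, which cleaves many matrix proteins and activates other pro-collagenases, was high already at 12.10 in control cells and read 14.07 and 13.88 with the vectors, a rise of 1.87 ± 0.19. MMP10, stromelysin-2, read 4.78, 6.50 and 5.71, with the vector arrays apart from each other, and did not pass (1.33 ± 0.33, adjusted p = 0.085 in limma). Of 14 metalloproteinases, plasminogen activators and inhibitors tested, 2 rose and 2 fell, and the median was 0.09 against -0.10 for all genes.

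The members that fell act on other steps of matrix turnover. PLAT, the tissue plasminogen activator, read 8.77, 6.92 and 6.92 (-1.85 ± 0.18). TIMP2, an inhibitor of metalloproteinases, read 10.35, 8.74 and 9.11 (-1.43 ± 0.22). A second TIMP2 probe set gave -1.15 and another -0.03, so its probe sets do not all show the fall. TIMP1, another inhibitor, stayed within 12.77 to 13.15 on the 3 arrays, and MMP14, a membrane-bound activator of other metalloproteinases, read 7.63, 8.16 and 8.06, and neither passed.

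Transcripts of many matrix genes were lower. Of 20 collagens and other matrix genes tested, 0 rose and 9 fell, 14 were below control on both vector arrays, and the median was -1.01. Over all genes 1.93% fell and 51.2% were below control on both arrays. THBS1, thrombospondin-1, a matrix glycoprotein that curbs vessel growth, read 11.81, 9.64 and 9.38 (-2.31 ± 0.20). The basement membrane chain COL4A1 read 10.99, 8.87 and 8.79 (-2.16 ± 0.18), and its partner COL4A2 had 11.53, 10.46 and 10.30 (-1.15 ± 0.19). On these 3 genes both vector arrays lay more than 1 log2 unit below control, and the vector arrays lay close together, which a call favours.

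Among fibrillar and associated chains, COL1A1, the main chain of bone collagen, read 12.08, 10.78 and 10.30 (-1.53 ± 0.25, adjusted p = 0.043 in limma). A second COL1A1 probe set gave -1.48, but the remaining 2 were higher with a vector, by 0.13 and 0.45. COL12A1, which coats collagen fibrils, had -1.50 ± 0.22, COL6A3 of the microfibrils -1.41 ± 0.19, COL5A2 -1.41 ± 0.21 and COL5A1 -1.09 ± 0.18. FN1, fibronectin, read 10.36, 8.81 and 8.91 (-1.50 ± 0.18), and 4 of its 5 probe sets above the level filter showed the fall. SPARC, the matrix protein among the markers above, had a change of -0.79 and did not pass, while its second probe set read 8.65, 6.96 and 6.54 (-1.90).

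**Figure D2:**
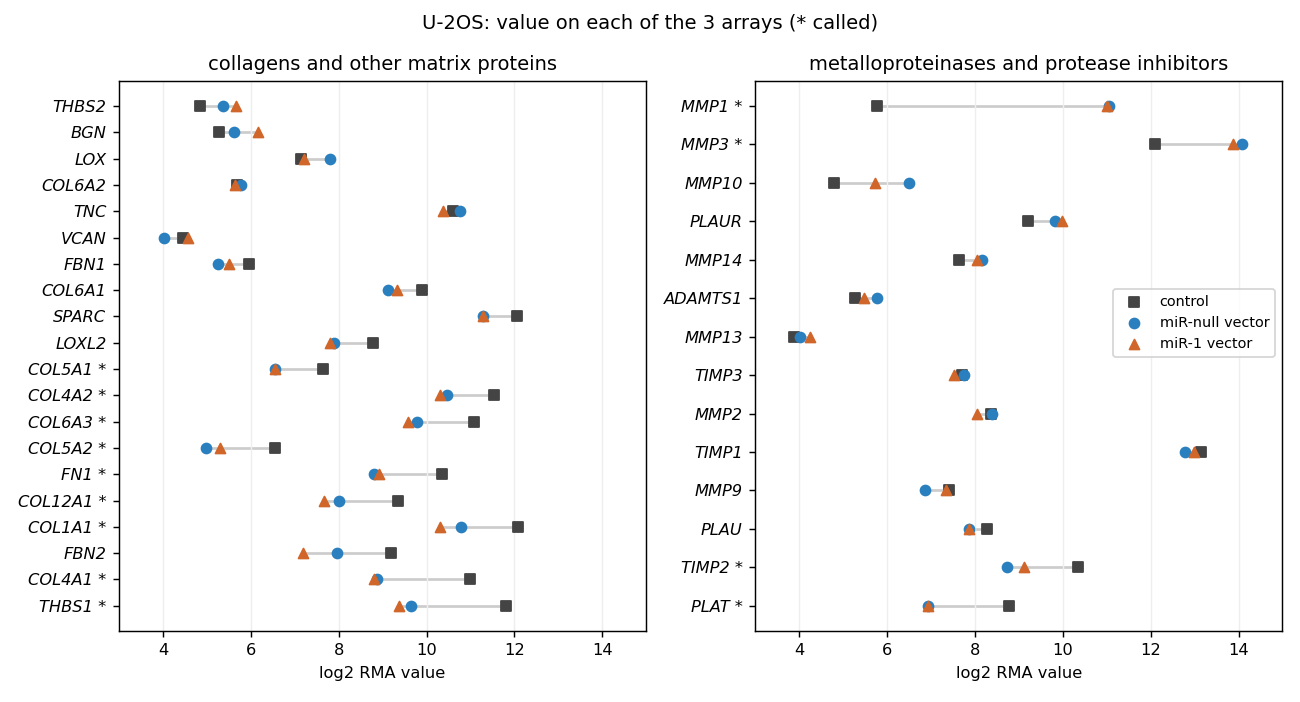
Log2 RMA value of each gene on the U-2OS control (square), miR-null (circle) and miR-1 (triangle) arrays, for the 20 matrix genes and the 14 proteases and inhibitors tested, ordered by their change and with an asterisk on those called. For the 9 matrix genes called both vector arrays lie to the left of control, since a call requires them on one side, and MMP1 crosses from 5.77 to about 11.

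Adhesion genes followed the same side: of 16 integrins and cadherins 0 rose, 4 fell, and 13 were below control on both arrays, with a median of -0.62. The shares of all genes were 1.93% called lower and 51.2% below on both arrays. CDH2, the N-cadherin of mesenchymal cells, read 9.18, 7.98 and 7.80 (-1.29 ± 0.19). ITGAV, the integrin alpha chain that binds fibronectin and vitronectin, read 10.69, 9.65 and 9.51 (-1.11 ± 0.19), and the protocadherin PCDH7 had -1.43 ± 0.18. CDH11, the osteoblast cadherin, had -2.05 ± 0.18 on the probe set used, but its other 3 probe sets lay between 0.02 and 0.17, so this fall rests on 1 probe set that can also bind related transcripts.

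PDGFC, a secreted ligand of the PDGF receptor alpha, fell most of all genes called, from 10.68 in control to 8.16 and 7.89 (-2.66 ± 0.20, 6.30-fold; adjusted p = 0.025 in limma). PDLIM1, an adapter on actin stress fibres, read 8.75, 6.29 and 5.99 (-2.61 ± 0.21). SLC39A10, a zinc importer of the plasma membrane, read 9.18, 6.71 and 6.47 (-2.59 ± 0.20). All 3 had the miR-1 array slightly below the miR-null array and both far below control.

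The next falls were TENM2, a teneurin adhesion receptor (9.63, 7.23 and 6.98), FRMD5, a FERM-domain protein of cell junctions (9.11, 6.94 and 6.28), and TRIB2, a pseudokinase that guides protein degradation (8.64, 6.22 and 6.29). PTX3, a pentraxin that cells secrete in innate immunity, had 8.81, 6.18 and 6.81, and EDIL3, a secreted integrin ligand, 7.51, 5.21 and 5.20. PRAG1, a pragmin pseudokinase, read 8.44, 6.42 and 5.90, and UBASH3B, a tyrosine phosphatase, 7.74, 5.59 and 5.57. Their changes ran from -2.53 for TENM2 to -2.16 for UBASH3B.

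**Figure D3:**
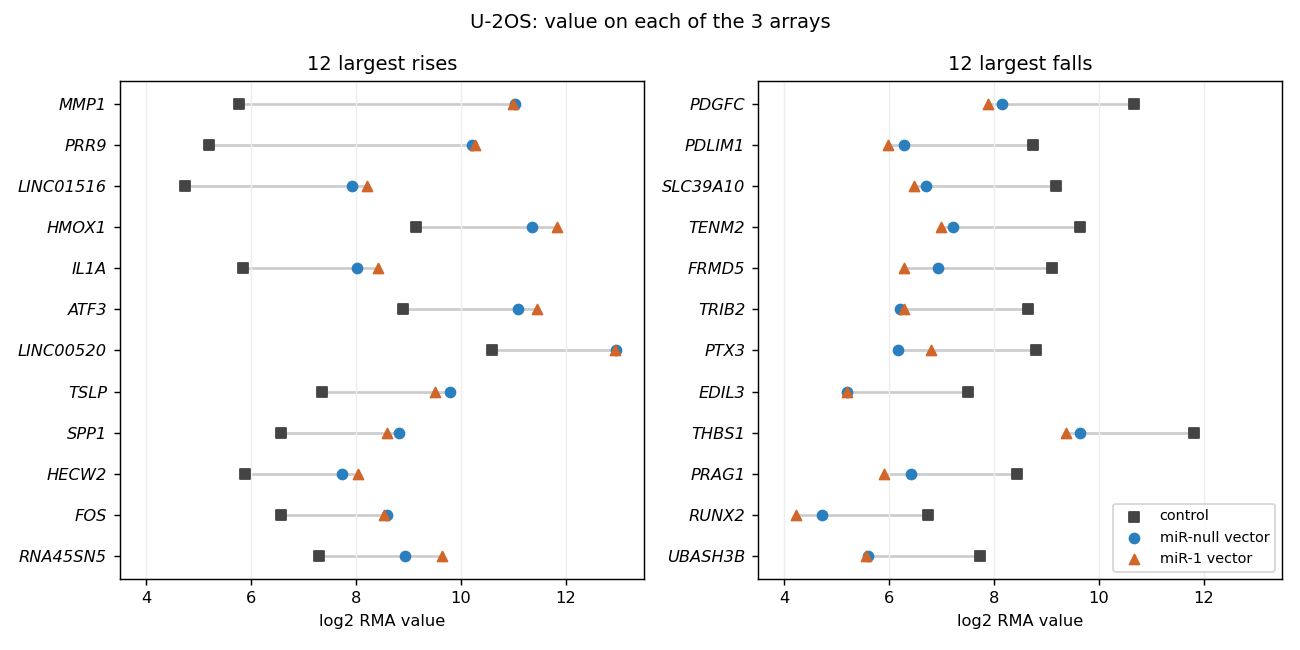
Log2 RMA value on each U-2OS array for the 12 genes called that rose most and the 12 that fell most, with control as a square, miR-null as a circle and miR-1 as a triangle. In all 24 genes both vector arrays lie on one side of control and nearer to each other than to it. A call requires the first and favours the second, so this follows from the choice of genes.

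RUNX2, the master transcription factor of osteoblasts, fell on the probe set used from 6.74 to 4.72 and 4.23, a change of -2.27 ± 0.25. Its other probe set above the level filter read 6.27, 6.31 and 6.78, on the other side of control, so the gene's direction is uncertain. Of 7 osteoblast genes tested 2 rose and 1, RUNX2, fell. SPP1, osteopontin, a bone matrix phosphoprotein, read 6.57, 8.82 and 8.60 (2.14 ± 0.20), and BMP2, a bone-inducing growth factor, 6.73, 8.16 and 8.36 (1.53 ± 0.19). TNFRSF11B, the decoy receptor osteoprotegerin, read 7.73, 6.96 and 6.82 and did not pass.

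Stress genes downstream of ATF4 were among those that rose. Of 32 integrated stress response genes tested 8 rose and 0 fell, 23 were above control on both vector arrays, and the median was 0.32. Over all genes 0.641% rose and 32% were above control on both arrays. ATF3, a stress-induced repressor and activator, read 8.90, 11.10 and 11.45 (2.37 ± 0.22; adjusted p = 0.027 in limma). DDIT3, the factor CHOP that couples unresolved stress to cell death, read 10.20, 11.95 and 12.16 (1.85 ± 0.19). PPP1R15A, the GADD34 subunit that lets eIF2 be dephosphorylated, read 8.06, 9.71 and 10.01 (1.80 ± 0.21), and its second probe set gave 1.66.

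The other members that rose were CTH, an enzyme of cysteine synthesis (1.63 ± 0.19), CREBRF, a regulator of the CREB3 factors (1.51 ± 0.19), NUPR1, a small nuclear stress protein (1.47 ± 0.19), CEBPG, a C/EBP partner of ATF4 (1.21 ± 0.19, with 0.09 on its second probe set), and DDIT4, an inhibitor of mTORC1 (1.14 ± 0.18). TRIB3, a pseudokinase induced by CHOP, read 10.35, 11.38 and 11.34 and SESN2, sestrin 2, 9.26, 10.27 and 10.63, with adjusted p-values of 0.0518 and 0.0551 in limma. Other amino acid synthesis genes of the list did not pass. ASNS, asparagine synthetase, read 11.68, 11.75 and 11.70, and of the serine synthesis genes PSAT1, PHGDH and PSPH had changes of 0.13, -0.21 and -0.37. CBS, which acts before CTH in cysteine synthesis, had -0.42. ALDH1L2, a mitochondrial folate enzyme, read 6.18, 5.67 and 5.08, and ATF4 itself 13.19, 13.32 and 13.37. Of 17 aminoacyl-tRNA synthetases, which charge tRNAs with amino acids and are ATF4 targets in part, 0 passed, and their median of -0.20 became 0.35 under interquartile scaling. A list of this size with 0 calls lies near the shares of all genes, 0.641% called higher and 1.93% lower.

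The promoter of DDIT3 is shown because it is the central gene of this group, and that of IL1A, described further down, because it holds AP-1 letters, the binding motif of FOS, JUN and ATF3 family dimers. Both are RefSeq windows of 300 bases (GRCh38.p14, minus strand, 250 bases before to 50 after the start), DDIT3 at chr12:57520465-57520764 and IL1A at chr2:112784444-112784743. Capitals mark every match to CCAAT, to TGATGCAA or TGATGTAA (the C/EBP-ATF element), to TGACTCA (AP-1), to TGACGTCA (CRE), to TTTGAA (CHR) and to TTTGGCGC (E2F), searched on both strands.
DDIT3: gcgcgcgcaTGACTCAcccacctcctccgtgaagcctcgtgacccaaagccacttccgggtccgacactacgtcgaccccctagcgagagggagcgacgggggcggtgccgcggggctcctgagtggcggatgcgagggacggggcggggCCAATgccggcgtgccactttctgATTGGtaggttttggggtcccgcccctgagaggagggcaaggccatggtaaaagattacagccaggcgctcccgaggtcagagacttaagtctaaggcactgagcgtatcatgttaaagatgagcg
IL1A: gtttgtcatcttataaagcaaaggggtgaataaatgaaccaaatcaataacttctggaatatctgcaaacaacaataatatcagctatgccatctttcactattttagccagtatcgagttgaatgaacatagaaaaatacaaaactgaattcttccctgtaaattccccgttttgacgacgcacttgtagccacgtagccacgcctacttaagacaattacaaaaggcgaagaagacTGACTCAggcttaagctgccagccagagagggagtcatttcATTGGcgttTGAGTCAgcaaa

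DDIT3 held 1 AP-1 match, at bases 10 to 16, and CCAAT letters at bases 151 to 155 and, reversed, at 175 to 179. Its window held no C/EBP-ATF letters. IL1A held AP-1 matches at bases 239 to 245 and 289 to 295. AP-1 letters stood in 6 of 58 promoters of genes called higher (10.3%), in 3 of 206 of genes called lower (1.46%), in 3.14% of the 10455 tested genes with a window and in 4.92% of all 27305 windows. The C/EBP-ATF letters stood in 4 of the 58 (6.9%), against 1.01% of tested genes and 1.78% of all windows. These are letter matches, described without a test.

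Oxidative and metal stress genes were next. HMOX1, haem oxygenase-1, read 9.14, 11.36 and 11.83, a rise of 2.45 ± 0.25 (5.46-fold; adjusted p = 0.030 in limma). It was the only one of 21 NRF2 and oxidative stress genes to pass, 13 being above control on both arrays, against 0.641% and 32% of all genes. GCLM, the modifier subunit of glutathione synthesis, read 9.86, 11.03 and 10.70 and SRXN1, sulfiredoxin, 10.04, 10.70 and 10.61, neither of which passed.

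Of 9 metallothionein and zinc homeostasis genes 4 rose and 8 were above control on both arrays, against 0.641% and 32% of all genes. Their median was 0.98. MT1F, a cysteine-rich metal-binding protein, read 12.67, 14.38 and 14.24 (1.64 ± 0.19). MT1G had 12.32, 13.56 and 13.69, MT1E 13.21, 14.44 and 14.42, and MT1X 13.21, 14.42 and 14.29, with changes of 1.31, 1.22 and 1.15. Metallothionein transcripts are nearly identical and their probe sets may share signal, so these are not independent rises. SLC30A1, a zinc exporter induced by metals, read 10.24, 11.21 and 11.24 (0.98 ± 0.18, adjusted p = 0.0537 in limma), and its second probe set read 8.16, 10.86 and 10.97, a difference of 2.75. SLC39A10, the zinc importer named above, fell.

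Of 14 heat shock genes 1 rose, HSPA6, a strictly inducible HSP70, which read 11.55, 13.17 and 13.22 (1.65 ± 0.18). Its probe sets may also bind the near-identical HSPA7. The median of the list was 0.01, or 0.70 under interquartile scaling. None of 22 endoplasmic reticulum chaperone and degradation genes passed, and 16 were below control on both arrays, against 51.2% of all genes. With 0.641% of all genes called higher and 1.93% lower, 0 calls in a list of this size is near those shares. PDIA3, a disulfide isomerase of that compartment, read 10.59, 10.03 and 9.45.

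Immediate early and growth arrest genes rose in part. FOS, the AP-1 subunit, read 6.57, 8.59 and 8.54 (1.99 ± 0.18) and DUSP1, the phosphatase that switches off stress kinases, 11.60, 13.00 and 12.70 (1.25 ± 0.21). They were the 2 of 20 immediate early genes that rose. EGR1, a zinc finger factor, read 10.65, 11.67 and 11.70 and JUN 11.36, 12.27 and 12.05, neither past the threshold, and MYC 11.75, 12.48 and 12.55. FOSL2, another AP-1 subunit, went the other way at 9.57, 8.56 and 8.61 (-0.99, adjusted p = 0.0537 in limma). Of its 5 probe sets above the level filter, 3 lay below control on both arrays. Among the 20 genes 11 were above control on both arrays and 5 below, against 32% and 51.2% of all genes.

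GADD45B read 8.12, 9.94 and 10.21 (1.95 ± 0.21) and GADD45A 11.85, 13.06 and 13.16 (1.26 ± 0.18), both of them sensors of growth arrest and DNA damage. BTG1, an antiproliferative cofactor, rose by 1.20 ± 0.18, while DDB2, a p53-induced DNA repair factor, fell from 7.58 to 6.19 and 5.75. The 23 growth arrest and p53 genes had a median of -0.09 (0.21 under interquartile scaling). Among 17 apoptosis genes 2 rose: BCL2A1, an NF-kB-induced survival protein, read 7.63, 9.38 and 9.45, and HRK, a BH3-only killer protein, 7.93, 9.59 and 9.18.

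Secreted signals moved in both directions. IL1A, interleukin 1 alpha, an alarm cytokine, read 5.85, 8.03 and 8.43 (2.38 ± 0.23), and TSLP, a cytokine of epithelial and stromal cells, 7.35, 9.80 and 9.50 (2.30 ± 0.21). With PTX3 they were the 3 of 19 NF-kB and cytokine genes that passed, 2 up and 1 down. PTGS2, the inducible cyclooxygenase, read 5.83, 7.02 and 6.65, and IL11, a cytokine of bone and stroma, 8.41, 9.10 and 9.09, without passing. ADM, the peptide adrenomedullin, and NDRG1, a hypoxia-induced protein, rose by 1.36 ± 0.18 and 1.20 ± 0.18, the 2 of 21 glycolysis and hypoxia genes that passed. GABARAPL1, a membrane-bound partner of autophagosomes, rose by 1.55 ± 0.18, the 1 of 18 autophagy and lysosome genes.

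Among the largest rises were genes with little known about them. PRR9, a proline-rich protein of the epidermal differentiation cluster, read 5.21, 10.21 and 10.27, a rise of 5.03 ± 0.18 (log2; adjusted p = 0.0012 in limma). Its control value lay near the array median, where no true zero of signal is known, so no fold is given. The noncoding RNA LINC01516 read 4.74, below the array median, in control and 7.92 and 8.21 with the vectors (3.33 ± 0.21), and LINC00520 read 10.60, 12.96 and 12.95 (2.36 ± 0.18). HECW2, a ubiquitin ligase, read 5.90, 7.75 and 8.04. RNA45SN5, the ribosomal RNA precursor, read 7.31, 8.93 and 9.64 (1.98 ± 0.31) on the probe set used and 7.37, 8.27 and 9.40 on its second one, beside the higher 28S signal given above. This transcript comes from repeated gene copies and is not normally polyadenylated.

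Cell cycle genes lay below control as a group. All 35 G2/M and mitosis genes tested were below control on both vector arrays, 4 of them fell, and the median was -0.78 against -0.10 for all genes (-0.35 against 0.11 under interquartile scaling). Of all genes 51.2% were below control on both arrays and 1.93% fell. KIF20A, a kinesin of the late spindle, read 9.72, 7.97 and 7.97 (-1.75 ± 0.18; adjusted p = 0.030 in limma). TOP2A, the topoisomerase that untangles chromosomes, read 11.35, 9.89 and 9.75 (-1.53 ± 0.19). ASPM, a spindle pole protein, had -1.26 ± 0.19 and SPC24, a kinetochore subunit, -1.16 ± 0.19, though a second SPC24 probe set lay 0.49 above control. KIF11, the spindle motor Eg5, read 9.29, 7.86 and 6.99, the lowest member, but the vector arrays differed and it did not pass (adjusted p = 0.058 in limma).

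Of the DNA replication genes 30 of 31 were below control on both arrays and 5 fell, against 51.2% and 1.93% of all genes. The median was -0.75 (-0.30 under interquartile scaling). CDT1, which loads the replicative helicase, read 8.46, 7.0 and 7.27 (-1.33 ± 0.20). The helicase subunits MCM6 and MCM5 had 11.60, 10.51 and 10.32, and 9.50, 8.49 and 8.33. HELLS, a chromatin remodeller, fell by 1.36 and POLA1, the primase-associated polymerase, by 1.27 (log2).

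Of 17 G1 regulators 4 fell, against 1.93% of all genes. CDK6, a kinase that opens the G1 gate, read 10.46, 9.16 and 9.03 (-1.37 ± 0.18), and CCNE2, a cyclin of S-phase entry, 6.82, 5.78 and 5.54. SKP2, which marks the CDK inhibitor p27 for degradation, read 11.33, 10.22 and 10.13, and RBL1, the p107 pocket protein, 5.91, 4.73 and 4.42. The list's median of -0.45 became 0.02 under interquartile scaling, so its direction as a group depends on the scaling.

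The promoters of KIF20A (chr5:138178862-138179161, plus strand) and TOP2A (chr17:40417847-40418146, minus strand) are shown because CCAAT and CHR elements are the known marks of promoters silenced outside G2/M. Windows, source and capitals are as above.
KIF20A: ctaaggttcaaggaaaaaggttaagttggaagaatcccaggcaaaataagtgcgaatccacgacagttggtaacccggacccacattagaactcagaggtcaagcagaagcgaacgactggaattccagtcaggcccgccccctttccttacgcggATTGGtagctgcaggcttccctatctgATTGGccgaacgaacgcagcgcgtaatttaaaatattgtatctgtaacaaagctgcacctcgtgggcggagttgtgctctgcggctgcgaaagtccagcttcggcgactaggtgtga
TOP2A: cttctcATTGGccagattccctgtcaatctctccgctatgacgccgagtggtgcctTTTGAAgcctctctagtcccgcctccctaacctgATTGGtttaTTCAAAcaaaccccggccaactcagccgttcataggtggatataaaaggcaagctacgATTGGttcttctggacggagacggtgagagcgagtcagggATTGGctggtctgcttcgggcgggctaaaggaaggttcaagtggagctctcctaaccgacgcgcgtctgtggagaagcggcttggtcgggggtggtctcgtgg

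TOP2A held CCAAT letters, reversed, at bases 7, 91, 158 and 198, and CHR letters at bases 57 and 100. KIF20A held reversed CCAAT letters at bases 157 and 184 and no CHR letters. CCAAT stood in 23 of 29 G2/M promoters found (79.3%), against 36.3% of tested genes and 35.7% of all windows, and CHR in 19 of the 29 (65.5%), against 9.8% and 15.4%. The E2F letters stood in 7 of 29 replication promoters (24.1%), against 1.01% and 0.659%.

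Other lists held calls too, against 0.641% of all genes called higher and 1.93% called lower. The shares called lower were 16.7% of sterol and fatty acid, 21.1% of Notch and Wnt, 7.41% of actin and 4.76% of TGF-beta genes. Of 18 sterol and fatty acid genes 3 fell, ACACA, which makes malonyl-CoA (8.41, 7.27 and 6.93, with a second probe set 0.49 above control), SCD, the stearoyl-CoA desaturase (11.48, 10.24 and 10.18), and ELOVL6, a fatty acid elongase (9.12, 8.03 and 7.86). Of 19 Notch and Wnt genes 4 fell: HES1, the Notch effector (7.96, 6.77 and 6.44), LRP6, the Wnt co-receptor (9.03, 7.86 and 7.60), FZD2, a Frizzled receptor, and LGR4, a receptor for R-spondins. HEY1, another Notch effector, lay on the other side at 7.18, 8.18 and 8.28 and just missed the threshold (1.05, adjusted p = 0.0501 in limma). CCN2, connective tissue growth factor, read 12.11, 10.84 and 10.88, the 1 of 21 TGF-beta genes that passed. Of 27 actin genes MYH10, a non-muscle myosin (10.18, 8.83 and 8.63), and MYLK, the myosin light chain kinase (7.70, 6.44 and 6.01), fell, and the list's median of -0.30 turned to 0.21 under interquartile scaling. The 21 oxidative phosphorylation genes had 0 calls and 19 members below control on both arrays, with a median of -0.35 that turned to 0.23 under that scaling, and ribosomal protein and proteasome genes had medians of -0.01 and 0.03 (0.77 and 0.61 under that scaling).

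**Figure D4:**
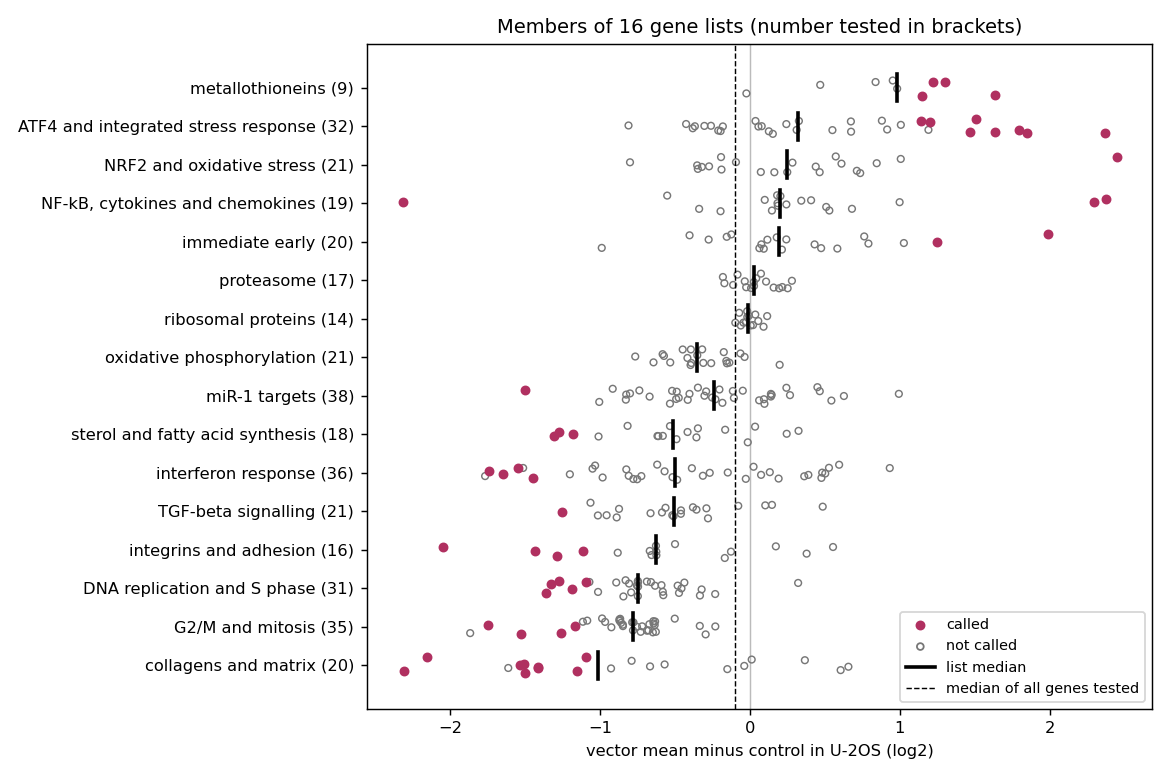
Each point is a gene's mean of both U-2OS vector arrays minus control (log2), for 16 gene lists, with filled points for genes called, a bar at the list's median and a dashed line at the median of all genes tested, -0.10. Metallothioneins lie highest (0.98) and the matrix list lowest (-1.01), and all G2/M members lie below 0.

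Of 36 interferon genes tested, which foreign DNA can induce, 0 rose and 4 fell in limma in U-2OS. Both vector arrays lay below control for 23 and above it for 10, against 51.2% and 32% of all genes, and the median was -0.50. IFIH1, the RNA sensor MDA5, read 5.87, 4.20 and 4.06 (-1.74 ± 0.19; adjusted p = 0.032 in limma), and IFI27, an interferon-induced mitochondrial protein, 7.62, 6.15 and 6.0. IFIT1, which binds foreign RNA caps, read 6.04, 4.40 and 4.78, and PARP9, an ADP-ribosylation cofactor, 7.63, 6.04 and 5.94, but a second PARP9 probe set gave -0.18. IFIH1 and IFIT1 were below the array median on both vector arrays. IFNB1, interferon beta itself, read 4.01, 4.49 and 4.30, all below the array median, and RSAD2, viperin, 4.79, 5.05 and 4.92, also below it on each array. PSMB9, an immunoproteasome subunit, was the 1 of 13 antigen presentation genes that passed, falling from 8.17 to 6.83 and 6.54.

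The change in U-2OS was set against that in KHOS with limma over all 6 arrays, and 37 genes (0.286%) had a higher change in U-2OS and 259 (2%) a lower one. All 36 interferon genes were above control on both KHOS vector arrays, with a median of 1.72, against 38.6% of all genes, and 22 of the 36 were among the 259. TRIM22, an antiviral ubiquitin ligase, read 5.37, 4.72 and 3.62 in U-2OS and 6.77, 10.86 and 9.98 in KHOS, a difference in change of -4.85 ± 0.64 (adjusted p = 0.014 in limma). IFIH1 had a difference of -4.52, IFI27 of -3.81, RSAD2, which was below the median of every U-2OS array, of -3.79, DDX60L, a helicase-like antiviral protein, of -3.58, and GBP1, a guanylate-binding protein, of -3.36. TRIM22, IFIH1 and GBP1 were also below the array median on both U-2OS vector arrays. RUNX2 differed by -3.13, with the probe set limit given above, PDGFC by -2.78, FN1 by -2.28 and COL4A1 by -2.07.

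On the other side MMP1 differed most. In KHOS it read 10.61, 10.53 and 10.26 on the 3 arrays in the same order, high already without a vector, and the difference in change was 5.47 ± 0.25 (adjusted p = 8.4e-05 in limma). PRR9 was at 4.17, 4.11 and 4.02 in KHOS and differed by 5.14 ± 0.23. LINC01516 differed by 3.21, IL1A by 2.56, LINC00520 by 2.22 and SPP1 by 2.04, and among stress genes MT1F by 1.45 and BCL2A1 by 1.86. Of the 6 genes with the highest differences, MMP1 and PRR9 passed under each alternative that tested them. Without either KHOS vector array the other 4, LINC01516, IL1A, LINC00520 and SPP1, did not pass, and neither did MT1F and BCL2A1. Under quantile normalization IL1A and SPP1 were lost, and SPP1 also under cyclic loess and over all probe sets. Of the 6 lowest, IFIH1, IFI27 and RSAD2 passed without either KHOS vector array and TRIM22, DDX60L and GBP1 did not. The 35 G2/M genes had a median of -0.55 in KHOS against -0.78 in U-2OS, 0 of them were above control on both KHOS arrays, and 0 had a line difference called in either direction.

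For several genes the line difference did not pass. ATF3 had a change of 2.37 in U-2OS and 3.29 in KHOS, DDIT3 of 1.85 and 2.06, PPP1R15A of 1.80 and 1.88, CTH of 1.63 and 2.07 and SKP2 of -1.16 and -1.08, with adjusted p-values for the difference of 0.248, 0.648, 0.881, 0.353 and 0.875 in limma. A p that misses the threshold does not show that the lines responded alike, since the 95% interval of a typical difference reached 0.58 to either side. Of the 83 genes that rose in U-2OS, 66 (79.5%) were above control on both KHOS arrays, and of the 250 that fell 178 (71.2%) were below, against 38.6% and 40.5% of all genes. The difference itself passed for 22 of the 83 and 93 of the 250. These genes were picked by their U-2OS change, which is part of the difference, so larger shares among them follow in part from the choice. Over all genes the difference was called higher in U-2OS for 0.286% and lower for 2%. Without either KHOS vector array the line difference called 6 or 7 genes, against 296 with both, and under quantile normalization 15.

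**Figure D5:**
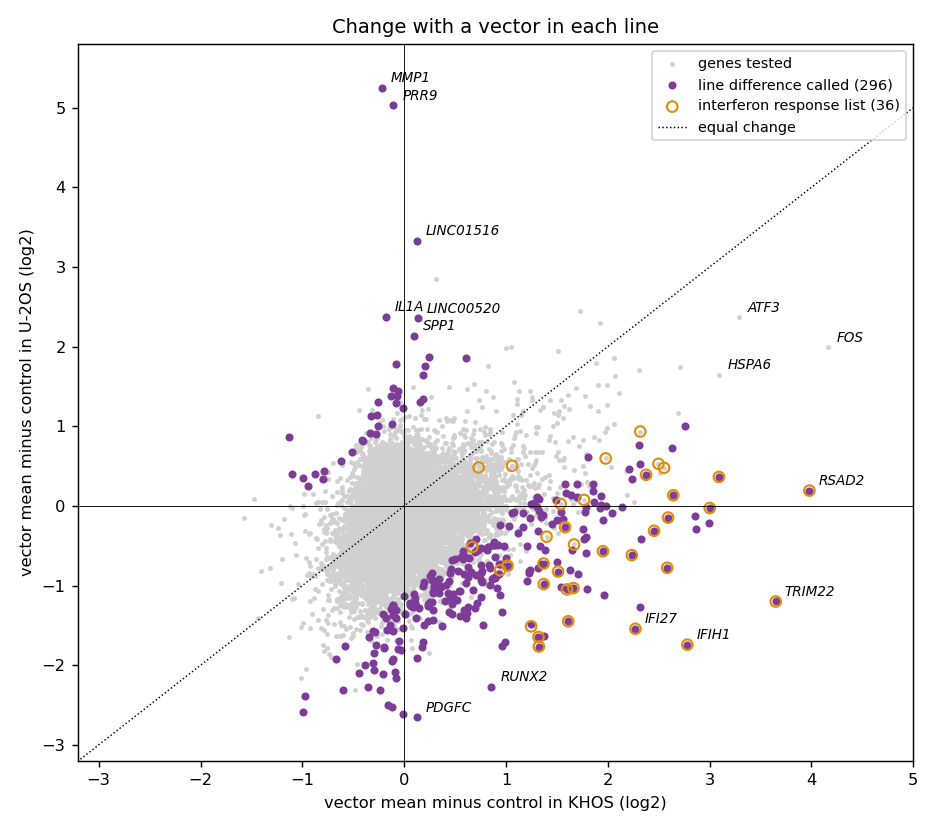
Mean of both vector arrays minus control (log2) in KHOS on the horizontal axis and in U-2OS on the vertical axis for all genes tested, with the 296 genes whose line difference was called in purple and the 36 interferon genes ringed. MMP1 and PRR9 stand above 5 in U-2OS and near 0 in KHOS, and every interferon gene lies right of 0.

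The vector arrays were also set against each other. The miR-1 array minus the miR-null array had a median of -0.05, 95% of genes lay between -0.60 and 0.53, and 15 genes were at least 2-fold higher and 22 lower, with 1 array each and no test. Furthest up were PLBD1, a lysosomal phospholipase B-like protein (control 4.47, miR-null 4.17, miR-1 5.62), ATP2B4, a plasma membrane calcium pump (6.93, 4.92 and 6.17), and INHBB, an activin subunit (5.13, 5.63 and 6.88). CIMAP1B and MPV17L2 followed, with differences of 1.22 and 1.21. Furthest down were NHS, an actin regulator (6.17, 5.92 and 4.48), and MYCT1, a MYC target (4.67, 8.22 and 6.84). TBCEL, ETS2, an ETS factor, and ZIC1, a neural zinc finger factor, differed by -1.36, -1.32 and -1.32. MYCT1 was above control on both vector arrays and did not pass (adjusted p = 0.054 in limma). Its control value lay below the array median, and it reached the level filter only through the vector arrays.

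Of 38 known miR-1 targets tested, 1 fell, FN1, given above, and 24 were below control on both vector arrays, against 1.93% called lower and 51.2% below on both arrays over all genes. FN1 read 8.81 with miR-null and 8.91 with miR-1, so its fall from control was not larger with miR-1. The median was -0.20 for miR-null minus control and -0.26 for miR-1 minus control, a pair of values that share the control array, and the median over both of -0.24 turned to 0.13 under interquartile scaling. SOX9, a cartilage factor, read 10.25, 9.34 and 9.15, CCND1, cyclin D1, 9.69, 9.04 and 8.86, and LASP1, an actin-binding adapter, 11.65, 10.80 and 10.67. For these genes the empty vector went with most of the difference from control, and the miR-1 array lay a further 0.13 to 0.19 below it. SNAI2, the repressor Slug, stood on the other side at 8.62, 9.70 and 9.53.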

How the data were processed

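The authors deposited log2 expression values, made from the scans by RMA in Qlucore 3.2 according to the design text of the series. The same text speaks of scaling genes to their average, but the deposited log2 values are not centred per gene. Further RMA settings are not given in the sources used here. RMA compresses differences near the bottom of the scale.

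Of 54675 probe sets, 62 controls were left out. By the platform annotation 41091 had 1 gene symbol, 1801 had several, which named no gene here, and 11721 were unnamed. Of the first kind 41037 matched RefSeq by Entrez identifier. For each of 19775 genes the probe set brightest on average across all 6 arrays was used, and the 12958 with a mean of at least 5.11, the median of the non-control probe sets, were tested.

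limma 3.58.1 in R 4.3.3 (lmFit, eBayes) gave the mean of the vector arrays minus control over the 3 U-2OS arrays, and the line difference over 6 arrays with 4 means and 2 residual degrees of freedom. A gene was called at a Benjamini-Hochberg adjusted p below 0.05 with both vector arrays on the same side of control, and all errors are limma's SE. The fit was tested on simulated data. There the control array varied like the vector arrays and both vectors had the same effect, so neither assumption was tested. List medians, fold counts and letter matches in promoters are descriptions. Alternatives were 3 other scalings, 3 level filters, all probe sets, a mean-dependent prior variance (trend), a spread from all 6 arrays, and leaving out each vector array.

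The comparison, its arrays and the 41 gene lists were chosen with earlier results of these data known. Named genes are the 12 largest rises and falls called, up to 6 members of each list with the largest change on the vector array nearer to control, the first 4 members of each list, the 6 largest line differences each way and the 5 largest differences between the vector arrays each way. ALDH1L2, ASNS, CBS, CEBPG, COL4A2, COL5A2, DDIT4, MMP14, PHGDH, PSAT1, PSPH, SESN2, TIMP1 and TRIB3 are list members outside that rule, chosen after their values were seen. Promoter windows are the first listed RefSeq window of a symbol.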

Additional observations from a re-analysis of the deposited data

Results flagged for a closer look

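The vector change differed between U-2OS and KHOS by limma's test of the difference for 37 genes with the higher change in U-2OS and 259 with the lower one. The largest differences in log2 change were 5.47 for MMP1, 5.14 for PRR9, 3.21 for LINC01516, 2.56 for IL1A, 2.22 for LINC00520 and 2.04 for SPP1 on the higher side. On the lower side they were -4.85 for TRIM22, -4.52 for IFIH1, -3.81 for IFI27, -3.79 for RSAD2, -3.58 for DDX60L and -3.36 for GBP1. RSAD2 was below the array median on all U-2OS arrays, and TRIM22, IFIH1 and GBP1 were below it on both U-2OS vector arrays. PRR9, LINC01516 and IL1A reached the level filter only through the U-2OS vector arrays. Each line had 1 control array, and the spread came from the vector arrays within each line.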

How the results depend on the processing

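The 333 calls between vector and control became 2 under quantile normalization (2 higher), 1132 under interquartile scaling (570 higher, 562 lower), 1721 with the 75th percentile filter (286 and 1435), 521 over all probe sets (104 and 417), 2179 with a mean-dependent prior variance (396 and 1783) and 1931 with the spread from all 6 arrays (418 and 1513). Without one U-2OS vector array they ran from 1551 to 3189, the higher count without miR-null, where the remaining vector array is assumed to vary like those of KHOS. Cyclic loess gave 266, no level filter 341 and the filter on the 3 U-2OS arrays 321. Of the 333, 326 were also called under interquartile scaling and 235 under cyclic loess. The 1.2-fold count of 5300 became 3474 with the 75th percentile filter and 11481 over all probe sets, and the 2-fold count of 410 became 1062 over all probe sets and 511 to 923 without one vector array. The 296 line differences became 15 under quantile normalization, 191 under interquartile scaling, 96 under cyclic loess, 553 with the 75th percentile filter and 863 with a mean-dependent prior variance, and 6 to 1531 without one vector array, lowest without KHOS miR-null. The cause was not tested, but the level filters and the use of all probe sets change the number tested by construction. Genes named without a call turned sign in a few cases: under interquartile scaling KRT18 was at 0.14, TIMP1 at 0.41, VIM at 0.25 and PHGDH at 0.11, PHGDH was at 0.020 under quantile normalization and 5.3e-05 under cyclic loess, and NT5E was at 0.12 without the miR-1 array and -0.14 without the miR-null array. The 3 other scalings kept the direction of the 10 differences between the vector arrays, an alternative added after seeing the data. No paired analysis was possible because the labels carry no replicate numbers that link arrays. With 1 control array, and values of some genes near the bottom of the scale, small changes were not detectable here.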
